A study of Mus musculus with 4 samples.

Results

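The 90 genes described here encode nuclear subunits of the mitochondrial respiratory chain and of ATP synthase, with 7 assembly factors of complex I among them. They were chosen by gene symbol alone from 19938 genes with a probe set that carried 1 symbol: symbols starting with Nduf, Uqcr, Cox4, Cox5, Cox6, Cox7, Cox8 or Atp5, with Sdha, Sdhb, Sdhc, Sdhd and Cyc1 added, and the probe set of highest mean was taken for each gene. Complex I contributed 43 genes, complex II 4, complex III 9, complex IV 17 and ATP synthase, also called complex V, 17. RNA of the small intestine was measured on 4 Affymetrix arrays, all from mice of the C57BL/6 strain. The CFLARs Tg group carries a transgene for the short form of cFLIP, a regulator of caspase-8, and holds 2 arrays titled XCFX and XCFY. The wild-type group holds 2 arrays titled XX and XY. XX-type and XY-type below are a reading of those titles, which was checked only against sex-linked genes, and the XX-type array is replicate 1 of each group. The sources used here give neither the promoter of the transgene nor the age of the mice nor the number of animals behind an array, so the p-values measure only the spread between these samples, which also includes the difference between the types and may be technical in part. The title of the series concerns death of intestinal epithelial cells and ileitis, and the comparison asks how the intestine of CFLARs Tg mice differs from that of wild-type mice.

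The respiratory chain sits in the inner mitochondrial membrane. Complexes I and II pass electrons from NADH and succinate to ubiquinone, complex III passes them on to cytochrome c, and complex IV passes them to oxygen. Complexes I, III and IV pump protons as they do so, and ATP synthase uses the return of those protons to make ATP. Absorptive enterocytes are rich in mitochondria and spend ATP on the sodium gradient that drives nutrient uptake. Most subunits are encoded in the nucleus and imported, and a small core set is encoded in mitochondrial DNA.

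Respiratory chain and ATP synthase transcripts differed little between the genotypes. Of the 88 genes that passed a filter on low values, 1 rose and 4 fell in CFLARs Tg intestine (limma, Benjamini-Hochberg adjusted p under 0.05 over 13956 genes), which is 5.68%. Over all fitted genes 19.3% passed, 8.44% as higher and 10.9% as lower in CFLARs Tg. The gene that rose was Ndufaf4, and those that fell were Cox7a1, Cox7a2l, Ndufa6 and Ndufa13. The median log2 difference, taken as CFLARs Tg minus wild-type, was -0.07 over the 88 genes and -0.01 over all fitted genes. The middle 50% of the 88 differences ran from -0.13 to -0.01, against -0.17 to 0.13 over all fitted genes. The 95% interval of the difference lay within 0.5 on the log2 scale, which is 1.41-fold, on both sides of 0 for 82 of the 88 genes and for 71.6% of all fitted genes. The 6 genes with wider or shifted intervals were the 3 largest calls, Ndufaf4, Cox7a1 and Cox7a2l, and also Ndufa11, Ndufb6 and Atp5k.

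The small differences mostly had one sign. The CFLARs Tg mean was below the wild-type mean for 67 of 88 genes (76.1%), against 52.4% of all fitted genes. Both CFLARs Tg arrays lay below both wild-type arrays for 38 of the 88 genes (43.2%), a share that all fitted genes had at 37.6%. Both CFLARs Tg arrays lay above for 12 genes (13.6%), against 32% of all fitted genes. Over the 88 genes, the SD of the difference between replicates was 0.136 for the CFLARs Tg arrays and 0.0878 for the wild-type arrays. Without CFLARs Tg replicate 1, 23 of the 88 genes passed limma's test, when 47% of all fitted genes passed. Without CFLARs Tg replicate 2, 10 of the 88 genes passed, when 32.4% of all fitted genes passed. Both sets included all 5 genes of the main test. Without wild-type replicate 1 or without wild-type replicate 2, 0 of the 88 genes passed limma's test, when 0.301% and 0.287% of all fitted genes passed. Against a minimum difference of 0.5 on the log2 scale (limma's treat) 0 of the 88 genes and 0.451% of all fitted genes passed. In the fits that leave out an array, the lone array of a genotype was taken to vary like the other genotype.

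**Figure D1:**
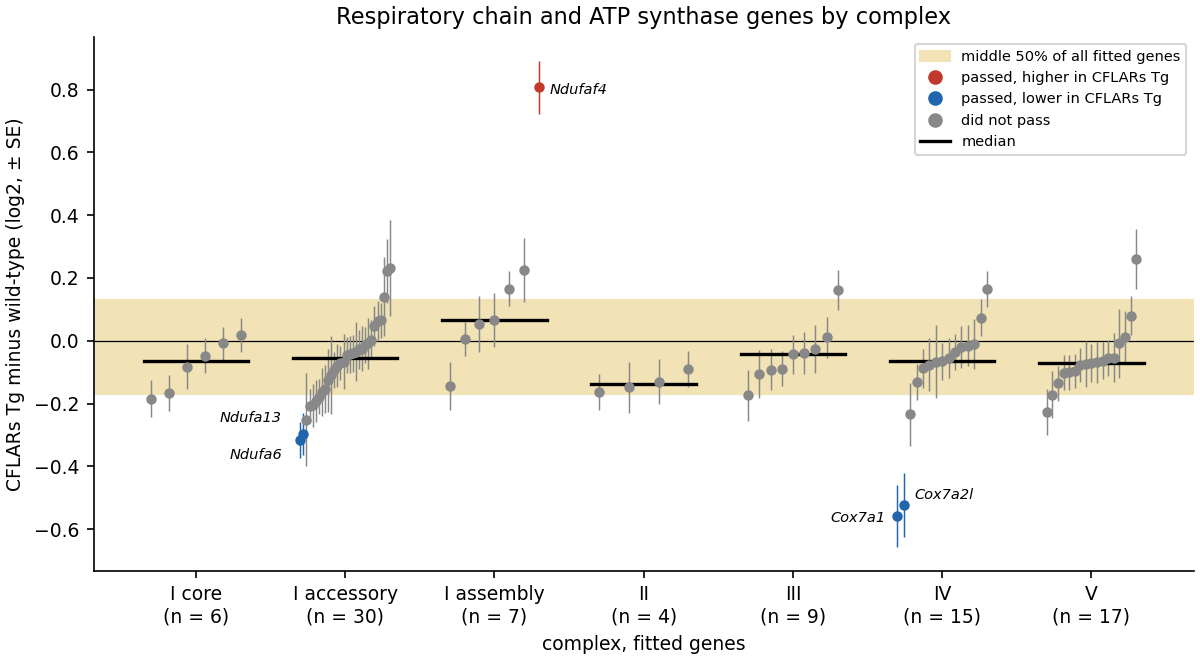
Difference between CFLARs Tg and wild-type (log2, vertical axis) for each of the 88 fitted genes, grouped by complex along the horizontal axis. Points are genes with the moderated standard error, black bars are group medians, and the shaded band from -0.17 to 0.13 holds the middle 50% of all fitted genes. Nearly all points lie within or near the band, and Ndufaf4 at 0.81 and Cox7a1 at -0.56 are the extremes.

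Ndufaf4, which encodes a complex I assembly factor, rose. It read 9.05 and 9.19 on the CFLARs Tg arrays of XX-type and XY-type, against 8.25 and 8.38 on the wild-type arrays. Both CFLARs Tg arrays were above both wild-type arrays by several times the gap between replicates. The difference was 0.81 (SE 0.08, limma adjusted p = 0.0171), a 1.75-fold rise, and its 95% interval ran from 0.59 to 1.03.

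Cox7a1, the subunit VIIa isoform of complex IV best known from heart and skeletal muscle, fell. It read 9.33 and 9.10 on the CFLARs Tg arrays, against 9.74 and 9.81 on the wild-type arrays, and the groups did not overlap. The difference was -0.56 (SE 0.10, limma adjusted p = 0.0298), so that the CFLARs Tg level was 67.9% of wild-type. Its 95% interval ran from -0.81 to -0.30.

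Cox7a2l, a relative of Cox7a1 known as a factor that can join complexes III and IV into a supercomplex, fell by a similar amount. Supercomplexes were not measured. It read 9.50 and 9.27 in CFLARs Tg and 9.98 and 9.84 in wild-type, again without overlap. The difference was -0.52 (SE 0.10, limma adjusted p = 0.0353), and the CFLARs Tg level was 69.6% of wild-type. A separate probe set for Cox7a2l differed by -0.42. The third VIIa gene, Cox7a2, which is widely expressed, read 11.11 and 11.18 in CFLARs Tg and 11.11 and 11.20 in wild-type (difference -0.02, 95% interval -0.19 to 0.16).

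Ndufa6 and Ndufa13, accessory subunits of complex I, fell by less. Ndufa6 read 11.37 and 11.32 in CFLARs Tg and 11.67 and 11.64 in wild-type (difference -0.32, SE 0.06, limma adjusted p = 0.0310). Ndufa13, also known as GRIM-19, read 10.47 and 10.35 in CFLARs Tg and 10.69 and 10.72 in wild-type (difference -0.30, SE 0.07, limma adjusted p = 0.0462). The CFLARs Tg levels were 80.3% and 81.3% of wild-type. Ndufa13 lay nearest to the threshold of the 5 genes, and its call was lost in 6 of 12 alternatives. Besides treat and the 2 fits that lacked a wild-type array, in which the other 4 genes were lost too, they were median centring (limma adjusted p = 0.0527), no filter (limma adjusted p = 0.0564, 12% of all genes called) and sex type as a block (limma adjusted p = 0.0553, 22.3% of all fitted genes called). On the other side of the threshold came the complex I accessory genes Ndufb9 (difference -0.21, limma adjusted p = 0.0637) and Ndufc1 (difference -0.18, limma adjusted p = 0.0832). The plot of the 5 genes by array shows how far the genotypes stood apart in each.

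**Figure D2:**
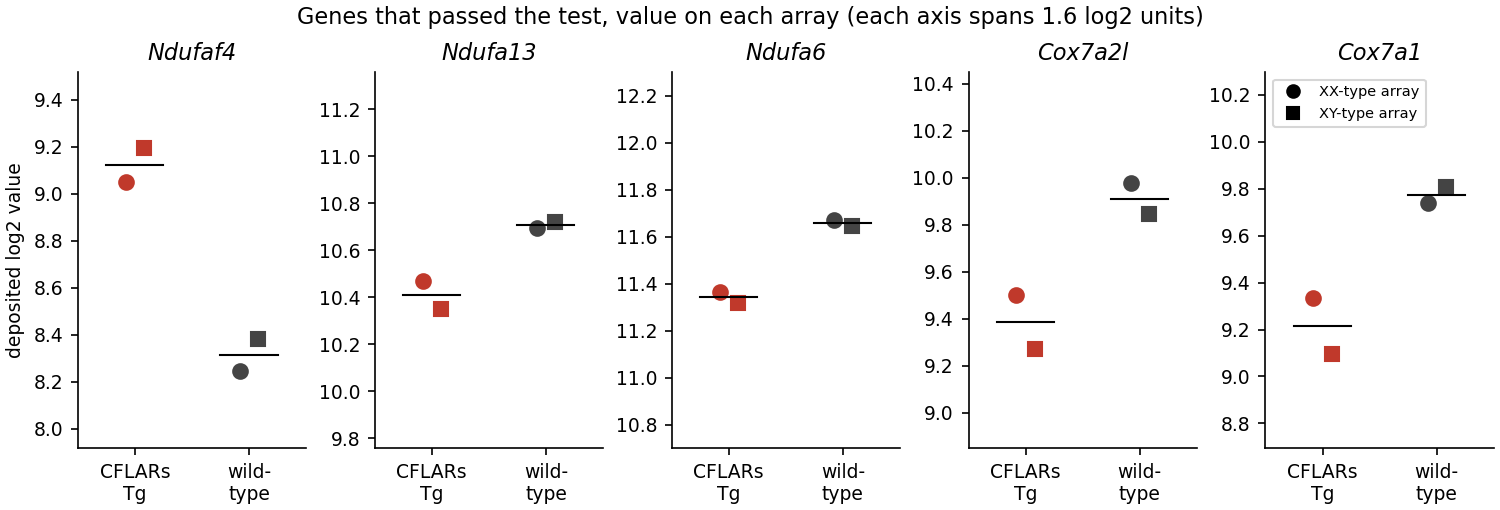
Deposited log2 value of the 5 genes that passed the test on each of the 4 arrays, with CFLARs Tg left of wild-type. Circles are XX-type arrays, squares XY-type arrays and bars the mean of 2 arrays; each vertical axis spans the same range, and the groups overlap in none of the 5 genes.

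The promoters of the 5 genes that passed are printed because many genes of this group share binding motifs of nuclear respiratory factor 1 (NRF1), ETS factors such as GABPA, and YY1. Each run holds 250 bases before and 50 bases after the annotated start (RefSeq, mouse build GRCm38.p6), 5′ to 3′ on the strand of the gene. Capitals mark letters that match the motif searched for NRF1 (CGCANGCGC), ETS factors (CCGGAAG), YY1 (AANATGGCG) or the TATA box (TATAAA) on either strand. A match is a description of letters, not a site.
Ndufaf4, chr4:24897833-24898132, plus strand: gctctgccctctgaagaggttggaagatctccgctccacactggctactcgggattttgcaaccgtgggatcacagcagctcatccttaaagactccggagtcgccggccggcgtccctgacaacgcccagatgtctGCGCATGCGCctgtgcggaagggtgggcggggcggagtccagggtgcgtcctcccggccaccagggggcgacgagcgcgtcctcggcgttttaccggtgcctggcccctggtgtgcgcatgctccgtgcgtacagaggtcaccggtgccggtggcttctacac
Cox7a1, chr7:30183921-30184220, plus strand: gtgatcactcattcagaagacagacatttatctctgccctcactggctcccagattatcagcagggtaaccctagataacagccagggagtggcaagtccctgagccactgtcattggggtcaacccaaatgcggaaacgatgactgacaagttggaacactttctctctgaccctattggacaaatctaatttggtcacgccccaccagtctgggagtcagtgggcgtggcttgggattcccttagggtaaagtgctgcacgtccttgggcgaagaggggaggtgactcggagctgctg
Cox7a2l, chr17:83514284-83514583, minus strand: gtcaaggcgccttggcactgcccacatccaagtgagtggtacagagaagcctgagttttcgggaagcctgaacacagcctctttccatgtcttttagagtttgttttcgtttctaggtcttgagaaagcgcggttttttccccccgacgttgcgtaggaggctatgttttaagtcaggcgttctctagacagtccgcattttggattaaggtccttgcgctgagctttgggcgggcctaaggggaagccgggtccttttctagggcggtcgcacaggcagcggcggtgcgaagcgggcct
Ndufa6, chr15:82354242-82354541, minus strand: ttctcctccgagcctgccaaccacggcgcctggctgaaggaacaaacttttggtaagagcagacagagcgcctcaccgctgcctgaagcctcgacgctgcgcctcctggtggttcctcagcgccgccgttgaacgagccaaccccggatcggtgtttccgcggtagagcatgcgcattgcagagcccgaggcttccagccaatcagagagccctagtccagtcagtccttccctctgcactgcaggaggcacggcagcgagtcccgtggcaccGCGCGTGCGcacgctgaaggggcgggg
Ndufa13, chr8:69901971-69902270, minus strand: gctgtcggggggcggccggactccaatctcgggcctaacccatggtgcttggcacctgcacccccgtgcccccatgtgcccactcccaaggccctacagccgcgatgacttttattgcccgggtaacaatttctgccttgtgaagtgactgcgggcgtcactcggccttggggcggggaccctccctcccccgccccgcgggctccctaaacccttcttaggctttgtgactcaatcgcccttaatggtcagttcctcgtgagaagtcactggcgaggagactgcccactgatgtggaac

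Ndufaf4, which rose, and Ndufa6, which fell, held the NRF1 letters. In Ndufaf4 the matches on the 2 strands overlapped, from base 138 and base 139 of the window, and in Ndufa6 the match began at base 274. Cox7a1, Cox7a2l and Ndufa13 held none of the 4 motifs in this window. A promoter window was found for 73 of the 90 genes, 78 windows in all. The NRF1 letters were in 33.3% of these windows and in 8.61% of the 21262 windows of protein-coding genes. The ETS letters were in 23.1% against 11.6%, the YY1 letters in 12.8% against 3.12%, and the TATA letters in 11.5% against 12.6%.

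Complex I is the entry point for electrons from NADH. Its core subunits carry the flavin and the iron-sulfur clusters, and 6 of those encoded in the nucleus were measured. Of the 6 core genes 0 passed limma's test, and their median difference was -0.07. Ndufs8 read 11.90 and 11.97 in CFLARs Tg and 12.10 and 12.14 in wild-type, the lowest core difference at -0.18 (95% interval -0.34 to -0.03). Ndufs7 differed by -0.17 and Ndufs3 by -0.08. Ndufv1, Ndufv2 and Ndufs1, which belong to the NADH-oxidising arm, differed by -0.05, 0.02 and -0.01, each with an interval inside 0.2 on both sides of 0.

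The 30 accessory subunits of complex I surround this core. Their median difference was -0.06, with 2 falls and 0 rises (6.67% called, against 19.3% of all fitted genes). The mean was lower in CFLARs Tg for 23 of the 30 (76.7%), against 52.4% of all fitted genes. The largest positive values were those of Ndufb6 and Ndufs4, and neither passed. Ndufb6 read 11.60 and 12.04 in CFLARs Tg and 11.58 and 11.60 in wild-type, so that its difference of 0.23 (SE 0.15) came from the XY-type CFLARs Tg array. Ndufs4 read 11.74 and 11.99 in CFLARs Tg and 11.61 and 11.68 in wild-type (difference 0.22, SE 0.10). The CFLARs Tg arrays of Ndufa11 were also uneven, with 11.20 and 10.83 in CFLARs Tg and 11.16 and 11.37 in wild-type (difference -0.25, SE 0.15). Ndufa4, whose product is now counted as a subunit of complex IV, differed by -0.03, and its relative Ndufa4l2, known as a hypoxia-induced gene, read 8.78 and 8.92 in CFLARs Tg and 8.86 and 8.55 in wild-type.

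Assembly factors of complex I help to build the complex and are not part of it. Of the 7 genes 1 passed, Ndufaf4 (14.3%, against 19.3% of all fitted genes). A higher mean in CFLARs Tg was found for 6 of the 7 (median difference 0.07), against 6650 of the 13956 fitted genes. Both pairs of arrays were higher in CFLARs Tg for 4 of the 7, against 4991 of the 13956 fitted genes. The median difference of the 7 was 0.0032 between XX-type arrays and 0.19 between XY-type arrays. Ndufaf5, a hydroxylase that modifies a core subunit, read 8.01 and 8.01 in CFLARs Tg and 7.83 and 7.86 in wild-type (difference 0.17, SE 0.05, limma adjusted p = 0.0966). Ndufaf2 read 8.42 and 8.59 in CFLARs Tg and 8.38 and 8.18 in wild-type (difference 0.23, SE 0.10). Ndufaf1, Ndufaf6 and Ndufaf7 differed by 0.05, 0.07 and 0.01, and turned sign when 1 array was left out. Ndufaf3 had the lower mean in CFLARs Tg (difference -0.14, SE 0.08). Among 36 fitted assembly factors of the chain that lie outside the group of 90, 2 rose and 3 fell. This was 13.9%, against 19.3% of all fitted genes, and the median difference of the 36 was 0.05. Without the filter 2 rose and 1 fell, when 12% of all genes were called.

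Complex II is succinate dehydrogenase, which also works in the tricarboxylic acid cycle, and all its subunits are encoded in the nucleus. Its 4 genes were lower, by small amounts, in both CFLARs Tg arrays than in both wild-type arrays. Over all fitted genes 37.6% had both CFLARs Tg arrays below. Of the 4 genes 0 passed limma's test, and 1 of 4 had an unadjusted p under 0.05, against 39.1% of all fitted genes. Sdhd, a membrane anchor, read 11.95 and 11.91 in CFLARs Tg and 12.11 and 12.07 in wild-type (difference -0.16, SE 0.06). Sdhb, the iron-sulfur subunit, read 11.41 and 11.23 in CFLARs Tg and 11.43 and 11.51 in wild-type (difference -0.15, SE 0.08). The other anchor, Sdhc, differed by -0.13 and the flavoprotein Sdha by -0.09. The median of the 4 was -0.14; it was -0.08 without CFLARs Tg replicate 2 and -0.19 without CFLARs Tg replicate 1.

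Complex III passes electrons from ubiquinone to cytochrome c. Of its 9 genes 0 passed limma's test, and their median difference was -0.04. An unadjusted p under 0.05 was reached by 0 of the 9, against 39.1% of all fitted genes. Cyc1, which encodes cytochrome c1, read 11.82 and 11.91 in CFLARs Tg and 11.68 and 11.74 in wild-type, the highest value of the complex (difference 0.16, 95% interval -0.01 to 0.33). Uqcrh, the hinge protein, was the lowest, with 12.04 and 11.87 in CFLARs Tg and 12.16 and 12.10 in wild-type (difference -0.17, SE 0.08). The core genes Uqcrc1 and Uqcrc2 and the Rieske protein gene Uqcrfs1 differed by -0.09, -0.04 and -0.04. Uqcrq, Uqcrb, Uqcr10 and Uqcr11, which encode small subunits, lay between -0.10 and 0.01.

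Complex IV, cytochrome c oxidase, has several subunits that exist as widely expressed and tissue-restricted isoforms. Of the 9 widely expressed genes 1 had an unadjusted p under 0.05, against 39.1% of all fitted genes. These 9 genes had 0 calls and a median difference of -0.05. Cox4i1 was the lowest of them, with 11.52 and 11.26 in CFLARs Tg and 11.64 and 11.61 in wild-type (difference -0.23, SE 0.10, limma adjusted p = 0.157). Cox5a was the highest, with 10.96 and 11.01 in CFLARs Tg and 10.85 and 10.79 in wild-type (difference 0.17, SE 0.06, limma adjusted p = 0.108). Cox6c differed by -0.13, Cox6a1 by -0.09, and Cox6b1, Cox8a and Cox5b by -0.02, -0.03 and -0.05.

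Among the isoforms of restricted expression, Cox7a1 stood alone in passing. Cox4i2, the lung isoform of subunit IV, differed by -0.08 and Cox6a2, the muscle isoform of VIa, by 0.07. Cox6b2 and Cox8c, known from testis, differed by -0.07 and -0.01. Cox8b and Cox7b2 did not pass the filter on low values. Cox8b, a muscle isoform, read 7.14 and 7.07 in CFLARs Tg and 7.23 and 7.28 in wild-type. Cox7b2 read between 5.45 and 5.50 on all 4 arrays, within the 5.13 to 6.78 at which Y-linked genes read on XX-type arrays and Xist on XY-type arrays. Whether the muscle content of the samples bears on the Cox7a1 value was not tested. Of 9 fitted markers of smooth and striated muscle 0 passed limma's test and 8 had a higher mean in CFLARs Tg. With sex type as a block 1 marker was called higher, when 22.3% of all fitted genes were called. Without CFLARs Tg replicate 1 the median difference of the 9 markers was 0.23, against 0.17 in the main fit. The mean log2 level of the 9 markers was 11.56 and 11.71 in CFLARs Tg and 11.46 and 11.48 in wild-type.

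ATP synthase consists of a catalytic F1 head, a ring of c subunits and a peripheral stalk. Of its 17 genes 0 passed limma's test, and the median difference was -0.07. An unadjusted p under 0.05 was reached by 2 of the 17, against 39.1% of all fitted genes. The F1 genes Atp5a1 and Atp5b, which encode the alpha and beta subunits, differed by -0.06 and -0.08, with intervals of -0.22 to 0.09 and -0.22 to 0.07. Atp5e, the epsilon subunit, was the lowest of the complex, with 9.62 and 9.47 in CFLARs Tg and 9.77 and 9.77 in wild-type (difference -0.23, SE 0.07, limma adjusted p = 0.0925). Atp5k, a small membrane subunit, was the highest, with 10.04 and 9.81 in CFLARs Tg and 9.69 and 9.64 in wild-type (difference 0.26, SE 0.10, limma adjusted p = 0.121).

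Atp5j2, another small membrane subunit, was the second lowest of the complex, with a difference of -0.17 and both CFLARs Tg arrays below both wild-type arrays.

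The c ring and the peripheral stalk complete the enzyme. The 3 genes of the c ring, Atp5g1, Atp5g2 and Atp5g3, encode the same mature protein, and they differed by 0.08, -0.10 and -0.06. The peripheral stalk genes Atp5h, Atp5j, Atp5o and Atp5pb differed by -0.14, -0.10, -0.07 and 0.01. Of the 17 genes, 10 (58.8%) had both CFLARs Tg arrays below both wild-type arrays, against 37.6% of all fitted genes. Both lay above for 2 (11.8%), Atp5g1 and Atp5k, against 32% of all fitted genes. Subunits encoded in mitochondrial DNA had probe sets with a single symbol for 2 genes, ND3 and COX2, which differed by -0.10 (SE 0.07) and -0.08 (SE 0.06).

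Each CFLARs Tg array can be set against the wild-type array of its own type, which gives values without a test. The median difference of the 88 genes was -0.06 for the XX-type arrays and -0.07 for the XY-type arrays. In 49 genes (55.7%, against 41.1% of all fitted genes) both pairs were lower in CFLARs Tg. In 14 of the 88 genes both were higher, against 4991 of the 13956 fitted genes. In 25 (28.4%, against 23.1% of all fitted genes) the pairs had opposite signs. Ndufaf4 differed by 0.80 and 0.81 in the XX-type and XY-type pair, the most even of the 5 genes that passed. Cox7a1 differed by -0.41 and -0.71, Cox7a2l by -0.47 and -0.57, Ndufa6 by -0.31 and -0.33, and Ndufa13 by -0.22 and -0.37. The difference was larger in size in the XY-type pair for 58 of the 88 genes (65.9%), against 60.8% of all fitted genes. The SD of the differences over the 88 genes was 0.153 (XX-type) and 0.210 (XY-type), and 0.349 and 0.460 over all fitted genes.

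**Figure D3:**
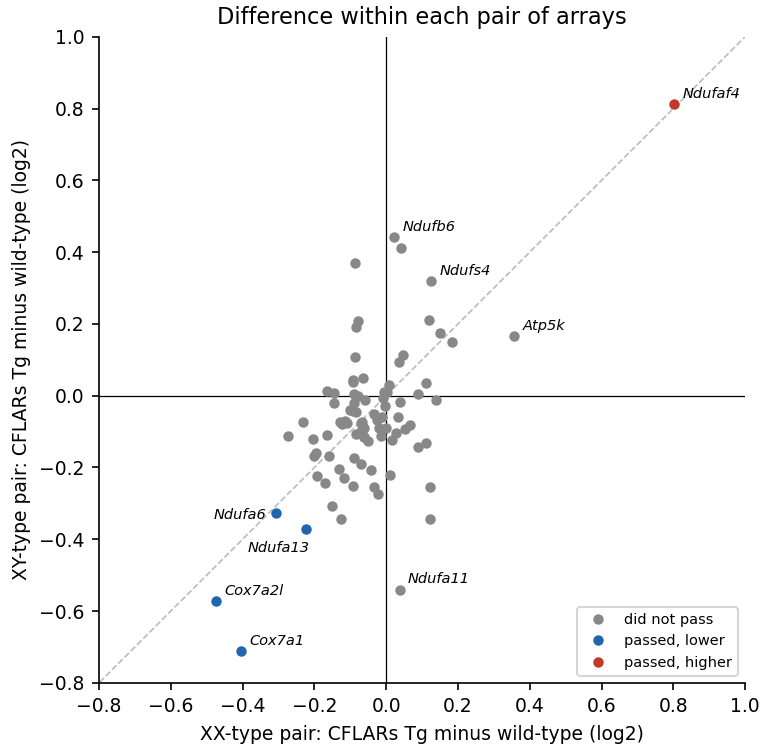
Difference between CFLARs Tg and wild-type (log2) between XX-type arrays (horizontal axis) and between XY-type arrays (vertical axis) for the 88 fitted genes. Each point is a gene, and the dashed line marks equal differences. Ndufaf4 lies on the line near 0.8, the 4 genes that fell lie at the lower left, and Ndufa11 and Ndufb6 differ mainly in the XY-type pair.

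Several of these genes have processed copies elsewhere in the genome, and 17 had more than 1 probe set, 42 in all. Which copy a probe set reads cannot be told from the files, so a value may mix a gene with a near-identical copy. The probe sets of 1 gene differed by a median of 0.02 and at most by 0.16, for Ndufb11, whose probe sets gave -0.15 and -0.32. Only for Atp5l, with differences between -0.01 and 0.06, did the sign vary among the 17 genes. Ndufa11 gave -0.25 and -0.12. With the median of each gene's probe sets, the same 5 genes passed.

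**Figure D4:**
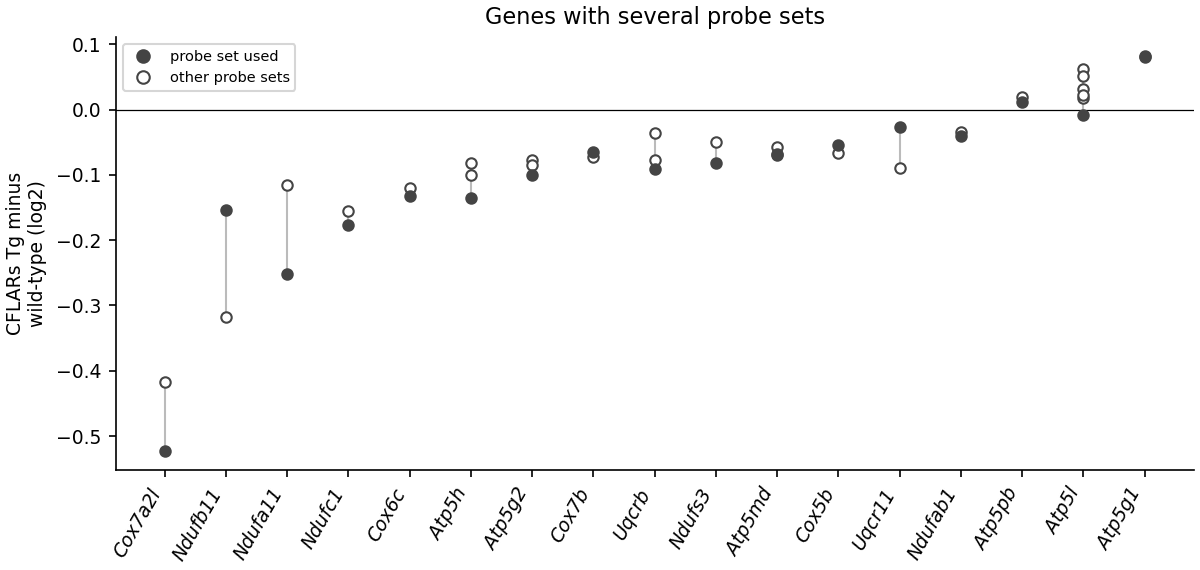
Difference between CFLARs Tg and wild-type (log2, vertical axis) by probe set for the 17 genes with several probe sets. Filled points are the probe sets used and open points the others. The points of a gene lie close together except for Ndufb11, Ndufa11 and Cox7a2l.

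Other lists of mitochondrial genes are given by their counts, beside the 19.3% of all fitted genes that passed. The protein import machinery and outer membrane pores had 8 rises and 0 falls among 19 fitted genes, with a median difference of 0.27 and 18 genes of higher mean. Tomm40, the channel of the outer membrane translocase, rose by 0.52 (SE 0.06, limma adjusted p = 0.0189). Timm8a1 and Timm10, small chaperones of the space between the membranes, rose by 0.60 and 0.46. Timm23, Timm17a and Timm50, of the inner membrane translocase, rose by 0.45, 0.38 and 0.39, and the other 2 that rose were Tomm5 (0.46) and the pore gene Vdac2 (0.27). The rises of Timm23 and Timm17a were not called without the filter, nor that of Timm23 after quantile normalization. That of Vdac2 was not called with the median of a gene's probe sets or with sex type as a block, and that of Timm8a1 with the lowest 50% of genes left out. Without wild-type replicate 1, without wild-type replicate 2 and under treat, 0 of the 19 genes passed limma's test.

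Regulators of mitochondrial biogenesis went both ways, with 1 rise and 4 falls among 17 fitted genes and a median difference of -0.02. Ppargc1a, the coactivator PGC-1 alpha, read 9.28 and 9.07 in CFLARs Tg and 10.36 and 10.30 in wild-type (difference -1.16, SE 0.09, limma adjusted p = 0.0115), a level 44.9% of wild-type. Ppara, the nuclear receptor of fatty acid oxidation, fell by 0.99, Polg2, the accessory subunit of the mitochondrial DNA polymerase, by 0.62, and Esrrg, an orphan nuclear receptor, by 0.46. Polg2 and Esrrg were not among the calls with the lowest 50% of genes left out. Pprc1, a coactivator related to Ppargc1a, rose by 0.77 (SE 0.07, limma adjusted p = 0.0161). Nrf1, Gabpa and Yy1, whose motifs were searched in the promoters, differed by 0.20, -0.01 and 0.01, and Tfam, the mitochondrial transcription factor, by -0.02.

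A list of electron carriers, ubiquinone synthesis, adenine nucleotide exchange and related carriers included 1 rise and 3 falls among 20 fitted genes. Gpd2, the mitochondrial glycerol phosphate dehydrogenase, read 10.90 and 10.81 in CFLARs Tg and 10.03 and 10.21 in wild-type (difference 0.74, SE 0.09, limma adjusted p = 0.0185). Coq8a and Coq4, of ubiquinone synthesis, fell by 1.05 and 0.45, and Etfdh, which passes electrons from fatty acid oxidation to ubiquinone, fell by 0.46. Cycs, the gene of cytochrome c, read 13.00 and 12.90 in CFLARs Tg and 12.53 and 12.84 in wild-type. Among 9 genes tied to the chain whose symbols are newer or of another form, 3 of which belong to the 90, 0 rose and 2 fell. Nnt, the NADPH-producing transhydrogenase of the inner membrane, read 10.21 and 9.95 in CFLARs Tg and 10.68 and 10.64 in wild-type (difference -0.58, SE 0.10, limma adjusted p = 0.0305). Higd2a, a factor of supercomplex assembly, fell by 0.32. Of 18 tricarboxylic acid cycle genes 0 passed limma's test, with a median difference of -0.01, and with sex type as a block 1 was called higher and 1 lower. The calls of Ppargc1a, Ppara, Pprc1, Gpd2 and Coq8a were kept under the other normalizations, filters, probe set choice and variance trend. They were also kept with sex type as a block and without either CFLARs Tg array. Without either wild-type array and against a minimum difference of 0.5 (limma's treat) these calls were lost. So were those of Polg2, Esrrg, Coq4, Etfdh, Nnt and Higd2a.

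**Figure D5:**
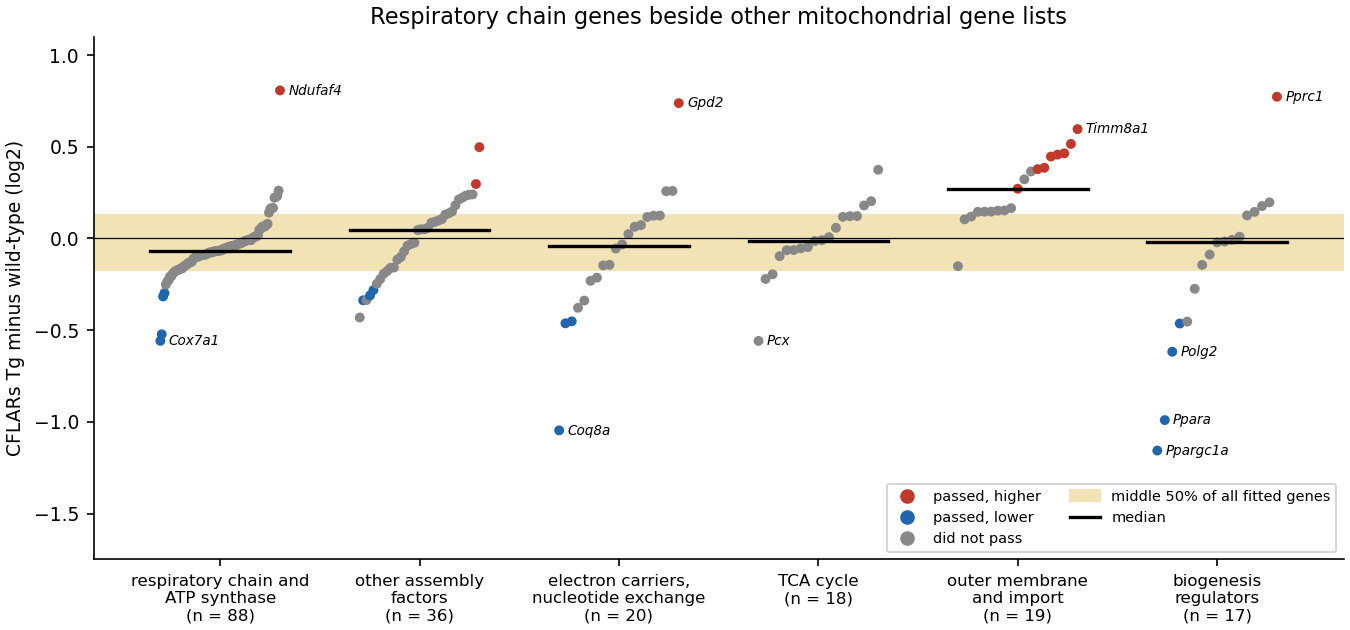
Difference between CFLARs Tg and wild-type (log2, vertical axis) for the 88 respiratory chain and ATP synthase genes and 5 other lists of mitochondrial genes. Points are genes, black bars medians, and the shaded band the middle 50% of all fitted genes. The chain lies around its median of -0.07, the import list around 0.27, and Ppargc1a and Ppara are the lowest regulators.

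Cflar, the gene of cFLIP, had 3 probe sets, and the one fitted read 9.49 and 9.30 in CFLARs Tg and 9.34 and 9.28 in wild-type (difference 0.08, SE 0.08, limma adjusted p = 0.498). The other Cflar probe sets differed by -0.05 and 0.08. The files do not give whether these probe sets read the transgene, so they check nothing about the genotype labels. The tissue label was checked against cell type markers. Enterocyte genes had a lower mean in CFLARs Tg for 8 of 8 fitted markers, of which 0 passed limma's test. The mean log2 level of these 8 was 13.27 and 12.68 in CFLARs Tg and 13.52 and 13.53 in wild-type. A further listed marker, Sis, did not pass the filter on low values, and without the filter it was called lower. Neutrophil markers rose in 5 of 5 fitted genes, with mean levels of 8.63 and 9.79 in CFLARs Tg and 6.91 and 7.06 in wild-type. These wild-type levels lay under the filter limit of 7.48, so on average the markers passed the filter through their CFLARs Tg values. Without the filter 4 of 6 were called, and with the lowest 50% of genes left out 0 were fitted. Macrophage markers had a higher mean in 5 of 5 genes with 0 calls, at 9.41 and 9.96 in CFLARs Tg and 9.15 and 9.16 in wild-type. In the XX-type pair 2 of the 5 were lower in CFLARs Tg, against 7488 of the 13956 fitted genes. Goblet cell markers were higher on both CFLARs Tg arrays in 4 of 4 genes, and over all fitted genes this share was 32%. The mean levels of the 4 markers were 12.52 and 12.84 in CFLARs Tg and 11.59 and 12.35 in wild-type, and 0 passed. Paneth cell markers had a higher mean in 3 of 3 fitted genes, at 9.44 and 10.65 in CFLARs Tg and 8.35 and 9.10 in wild-type, and 0 passed. Liver markers were lower on both CFLARs Tg arrays in 3 of 3 fitted genes, and over all fitted genes this share was 37.6%. Of the 3 liver markers 1, Ttr, passed. Their mean levels were 10.68 and 8.13 in CFLARs Tg and 11.10 and 11.996 in wild-type, and Alb, the gene of albumin, read 11.20 and 6.57 in CFLARs Tg and 11.47 and 12.72 in wild-type. With sex type as a block limma called 2 enterocyte, 2 macrophage, 4 goblet cell and 3 Paneth cell markers. That fit called 22.3% of all fitted genes. Without CFLARs Tg replicate 1 the median differences of these lists were -0.58, 0.53, 0.81 and 2.09, and the liver median was -3.64. In the main fit they were -0.41, 0.34, 0.63, 1.35 and -2.38. Of the 2 fitted exocrine pancreas markers both had a lower mean in CFLARs Tg and 0 passed, and of 2 lymphocyte and 2 testis markers 0 passed. The part of these shifts in the respiratory chain values was not tested. In bulk tissue, fewer cells of a type and less RNA per cell cannot be told apart.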

How the data were processed

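The authors deposited expression on a log2 scale for 28856 probe sets on each of 4 arrays; how background, summarisation and normalization were handled is not given in the sources used here. They ran from 4.33 to 14.55, with array medians of 8.31 to 8.33, and were used as deposited. The SD of the log2 difference between replicates over autosomal genes was 0.231 for the CFLARs Tg arrays and 0.125 for the wild-type arrays. Gene names came from the platform annotation: 21789 probe sets had 1 symbol, 1621 had several and 5446 had none, and only the first were named, so Cox7c and Ndufb4 were not analysed here. The 30% of genes with the lowest mean, under a log2 value of 7.48, were left out.

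The remaining 13956 genes were fitted together with limma 3.58.1 (R 4.3.3; lmFit and eBayes, no covariates; 2 residual and 2.64 prior degrees of freedom), with Benjamini-Hochberg adjustment over all of them and a threshold of 0.05. The fit was tested on simulated data. Differences are of log2 means, CFLARs Tg minus wild-type, beside the moderated SE. Intervals are 95% intervals from the same fit. The number of arrays limits the precision. Probe sets differ in response, so levels were not compared between genes. Named were the genes that passed, the 3 highest and 3 lowest of each complex, isoform sets, assembly factors, those next to the threshold (45 fitted genes), and 18 further fitted members chosen after their values were seen. The genes, lists and rules were chosen with earlier results of these data known. Normalization, filter, probe set choice, variance trend, a minimum difference (treat), sex type as a block and leaving out each array were tried as alternatives.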

Additional observations from a re-analysis of the deposited data

Results flagged for a closer look

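In 14 of the 63 named genes that were fitted the XX-type and XY-type pairs differed in opposite directions. Any opposite signs counted, whatever the size, and with 1 array of each type and genotype these gaps were not tested; opposite signs were found in 23.1% of all fitted genes. The gap, XY-type minus XX-type, was widest in size for Ndufa11, at -0.58 from differences of -0.54 and 0.04. Ndufa4l2 had a gap of 0.46, Ndufaf6 of 0.29, Ndufaf1 of 0.27, Atp5pb of 0.19 and Cox4i2 of 0.18. Cox6b2 had a gap of -0.38, Cox8c of -0.24, Uqcrq of -0.23, Uqcr11 of -0.23, Atp5l of -0.15, Cox6b1 of -0.14, Uqcrfs1 of -0.13 and Uqcr10 of -0.055.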

How the results depend on the processing

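The main test called 1 gene of the 88 higher and 4 lower in CFLARs Tg. The same 5 genes were called after quantile normalization, with the lowest 50% of genes left out, with the median of probe sets and with an intensity trend. Ndufa13 alone lost its call after median centring (limma adjusted p = 0.0527) and without the filter (limma adjusted p = 0.0564). With sex type as a replicate block, 1 gene was called higher and 3 lower, again without Ndufa13 (difference -0.30, limma adjusted p = 0.0553). The titles give a type, not a shared replicate number, and over 13506 autosomal genes the difference between types correlated at r = 0.014 between the genotypes, a value across genes that are not independent. Against a minimum difference of 0.5, limma's treat called 0 higher and 0 lower.

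Leaving out 1 array gave 0 to 6 genes called higher and 0 to 17 called lower, with 0 in each fit that lacked a wild-type array. The median difference ran from -0.08 to -0.05 over the 88 genes, -0.058 to -0.029 in complex I, -0.19 to -0.076 in complex II and -0.089 to -0.013 in complex III. In complexes IV and V it moved by less than the spread between replicates, from -0.08 to -0.05 and from -0.08 to -0.07. In 15 of the 63 named genes, none of them called, leaving out 1 array turned the sign. Their differences ran from -0.13 to 0.060 for Ndufa4, -0.017 to 0.30 for Ndufa4l2, -0.051 to 0.16 for Ndufaf1, -0.015 to 0.15 for Ndufaf6, -0.0076 to 0.020 for Ndufaf7, -0.040 to 0.062 for Uqcr10, -0.086 to 0.032 for Uqcr11, -0.17 to 0.021 for Cox4i2, -0.22 to 0.088 for Cox6b2, -0.093 to 0.072 for Cox8c, -0.074 to 0.035 for Cox6b1, -0.062 to 0.031 for Cox7a2, -0.083 to 0.11 for Atp5pb, -0.10 to 0.024 for Uqcrfs1 and -0.14 to 0.13 for Atp5l. Ndufs1 turned to 0.0036 after quantile normalization and Atp5l to 0.042 with the median of probe sets. The cause was not tested. With 2 arrays per genotype, the signs of these 15 differences rest on single arrays.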
